A study of Homo sapiens with 12 samples.

Results

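Cholesterol synthesis was followed through 8 listed genes in HEK293 cells after knockdown of the splicing-associated proteins RBM17, U2SURP and CHERP. The genes were SREBF2 and INSIG1, which regulate the pathway, and HMGCS1, PMVK, IDI1, FDFT1, SQLE and LSS, which encode enzymes of it. The list of symbols was given, and the symbols were matched to the Ensembl gene IDs of the count tables through GENCODE 29. The genes are 8 of 60554 IDs counted, and all 8 were among the 29003 genes with enough counts to test. The 12 RNA-seq libraries fall into 4 groups of 3: cells that received a SMARTpool of ON-TARGETplus siRNAs against RBM17, cells that received such a pool against U2SURP, cells that received such a pool against CHERP, and control cells that received the ON-TARGETplus Non-targeting siRNA #3. The design text calls this control a scramble sequence, and its label names no pool. All cells were at passage 10, were grown in DMEM with fetal bovine serum, and carried no other agent. The source is given as HEK293 and the cell line as HEK293T; both are human embryonic kidney lines, and HEK293T also carries the SV40 large T antigen. Nothing in the labels ties the 3 libraries of a group to separate cultures, and the p-values therefore rest on a spread that may be technical.

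Cells make cholesterol from acetyl-CoA through mevalonate, the isoprenoid diphosphates, squalene and lanosterol. SREBP2, the product of SREBF2, is a membrane-bound transcription factor of the endoplasmic reticulum; when sterols are low its escort SCAP carries it to the Golgi, where proteases release the part that enters the nucleus and switches on most genes of the pathway and genes of cholesterol uptake. INSIG1 holds SCAP back when sterols are present and is itself a target of SREBP2. Medium with serum supplies lipoprotein cholesterol, so cells grown in it have an outside source of sterol.

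Depth was 252505520 to 320986785 counts per library, and each of the 8 genes had at least 6240 counts in every library, so counting error is small. Levels are CPM, counts scaled to the TMM-adjusted library size, fold changes are log2 with their standard error (SE), and a gene was called at a Benjamini-Hochberg adjusted p under 0.05 in edgeR's quasi-likelihood test over all genes. Each siRNA target was lower in its own knockdown: RBM17 fell to 23% of control (adjusted p = 1.37e-19), U2SURP to 30.5% (adjusted p = 7.05e-15) and CHERP to 29.3% (adjusted p = 4.45e-17). The numbers of the libraries are consecutive within each group, and any batch of preparation cannot be told apart from the group. On the leading principal component (31% of the variance) the 3 libraries of RBM17 knockdown scored -88 to -64.5, against 8.26 to 42.3 in the other 9. Mitochondrially encoded genes took 4.64 to 5.02% of counts in RBM17 knockdown, 4.94 to 5.15% in U2SURP knockdown, 3.98 to 4.61% in CHERP knockdown and 7.88 to 8.70% in control. Of 8 HEK293 markers, 8, 6, 7 and 8 reached 1 CPM in RBM17 knockdown, U2SURP knockdown, CHERP knockdown and control. Of 6 fibroblast markers, 2, 1, 1 and 2 did so, with summed levels of 14.7 to 15.8, 11.5 to 15.3, 10.8 to 13.9 and 18.9 to 23.0 CPM. COL1A1 made up most of that sum, and COL1A2, THY1 and DCN were near 0 in every library. Hepatocyte and blood markers summed to under 4 CPM in every library, with PTPRC and CD3E near 0 and HBB at 0 in all 12. The mitochondrial share and the COL1A1 level run between knockdown and control, as do the results that follow, and their part in those results was not tested.

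The pathway did not move as a block. INSIG1, SQLE and LSS fell in each of the 3 knockdowns, SQLE to 74.2%, 55.2% and 54.1% of control after knockdown of RBM17, U2SURP and CHERP. PMVK rose in each of them, 1.68-fold, 1.5-fold and 1.47-fold. The share of all tested genes called alike in all 3 comparisons was not counted, and the comparisons share their control libraries. Like calls in all 3 therefore set these genes apart from nothing. FDFT1, the enzyme just before SQLE, rose 1.47-fold in RBM17 knockdown and 1.13-fold in U2SURP knockdown. SREBF2 itself fell to 77.5% of control in RBM17 knockdown, and IDI1 passed the test in none of the 3 comparisons. In bulk RNA, fewer cells of a type and less RNA per cell cannot be told apart.

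In RBM17 knockdown 2 of the 8 genes were called higher and 4 lower, where 54.7% of all tested genes were called, 25.4% higher and 29.3% lower. In U2SURP knockdown 2 were called higher and 3 lower, where 43.3% of all tested genes were called, 21.1% higher and 22.2% lower. Without control library 1 these counts were 1 and 5, and without RBM17 knockdown library 1 they were 2 and 5. In CHERP knockdown 1 was called higher and 5 lower, where 47.3% of all tested genes were called, 22.8% higher and 24.6% lower. Without control library 3 the count of genes called higher was 2. With so many genes called throughout the transcriptome, these counts describe the 8 genes and set them apart from nothing. The median log2 fold change of the 8 genes was -0.20 in RBM17 knockdown, -0.16 in U2SURP knockdown and -0.20 in CHERP knockdown, against -0.10, -0.03 and -0.004 over all tested genes and 0.12, 0.05 and 0.02 over the 11720 genes with a mean of at least 5 CPM. The 3 comparisons share the same control libraries.

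**Figure D1:**
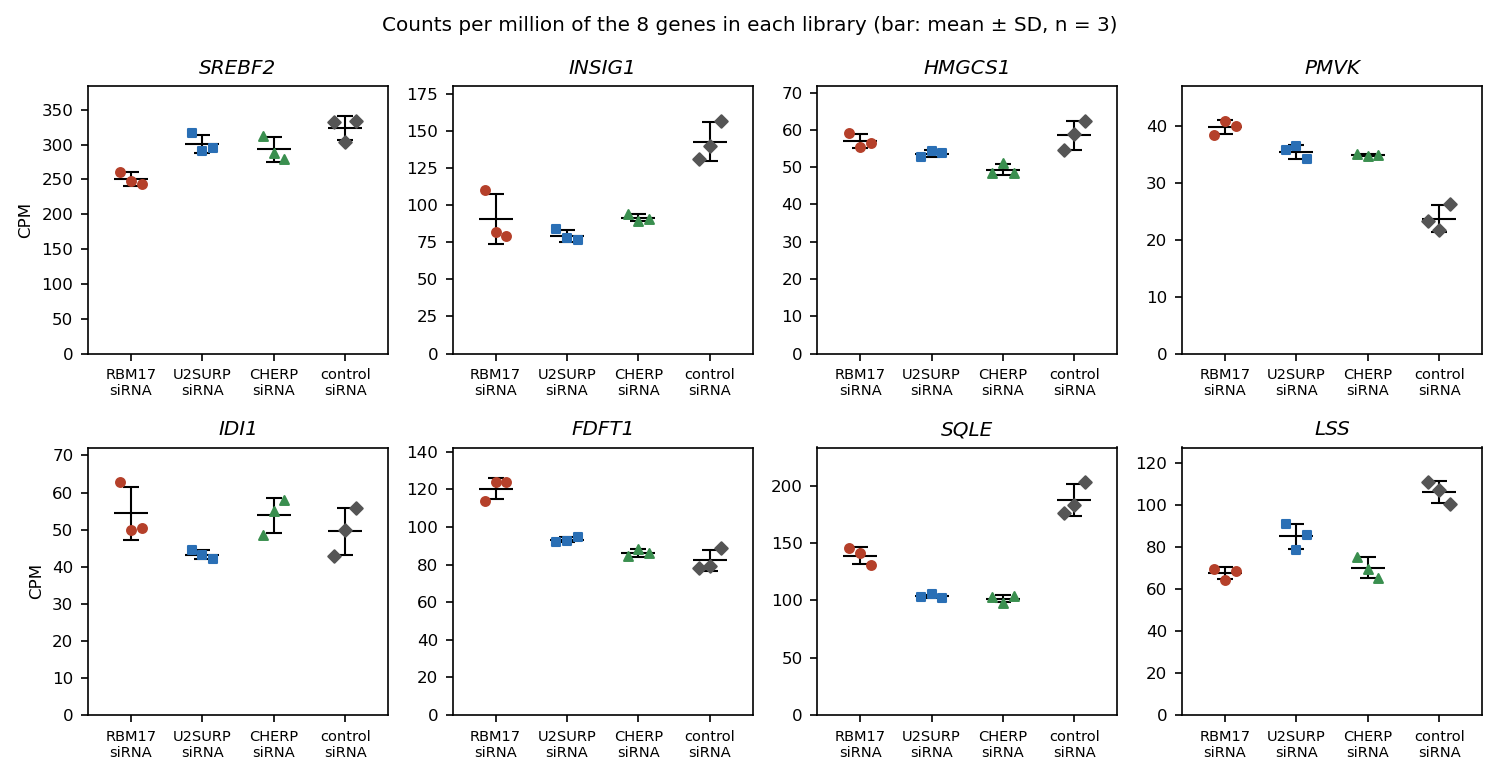
CPM of the 8 genes (y axis, from 0, own scale per gene) in each of the 12 libraries, by siRNA group (x axis); points are libraries and bars are the mean ± SD of 3. The knockdown libraries of INSIG1, SQLE and LSS all lie under the controls, those of PMVK all lie above them (34.1 to 40.8 against 21.7 to 26.2), and those of IDI1 overlap them. How many of all tested genes separate in this way, here or in the paragraphs on single genes, was not counted.

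Promoter sequence is shown for SREBF2, for INSIG1 and LSS, which fell in every knockdown, and for PMVK, which rose in every knockdown. RefSeq windows of 300 bases, 250 before and 50 after the annotated start (GRCh38.p14), were matched for 6 of the 8 genes, with 9 windows in all. They were searched on both strands for the sterol regulatory element, to which SREBP2 binds, as TCACNCCAC and as the overlapping CACCCCAC, and for CCAAT, the box of NF-Y, a factor known to act beside SREBPs. Capitals mark matches, and ATTGG is CCAAT read on the other strand. The windows are chr22:41832855-41833154 on the plus strand for SREBF2, chr7:155297628-155297927 on the plus strand for INSIG1, chr21:46228725-46229024 on the minus strand for LSS and chr1:154936670-154936969 on the minus strand for PMVK, each printed 5′ to 3′ along the gene.
SREBF2: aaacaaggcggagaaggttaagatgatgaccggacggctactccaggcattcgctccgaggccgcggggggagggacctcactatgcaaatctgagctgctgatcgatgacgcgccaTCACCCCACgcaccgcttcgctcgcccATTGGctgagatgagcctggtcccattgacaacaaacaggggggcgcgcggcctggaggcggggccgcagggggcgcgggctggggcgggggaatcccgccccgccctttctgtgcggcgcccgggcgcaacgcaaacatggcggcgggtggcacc
INSIG1: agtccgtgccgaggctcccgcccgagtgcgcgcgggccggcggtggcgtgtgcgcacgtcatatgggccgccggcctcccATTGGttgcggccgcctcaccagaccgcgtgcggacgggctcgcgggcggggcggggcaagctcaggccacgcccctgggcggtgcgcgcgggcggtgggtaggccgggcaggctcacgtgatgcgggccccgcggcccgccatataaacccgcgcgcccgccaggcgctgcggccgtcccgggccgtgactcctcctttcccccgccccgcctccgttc
LSS: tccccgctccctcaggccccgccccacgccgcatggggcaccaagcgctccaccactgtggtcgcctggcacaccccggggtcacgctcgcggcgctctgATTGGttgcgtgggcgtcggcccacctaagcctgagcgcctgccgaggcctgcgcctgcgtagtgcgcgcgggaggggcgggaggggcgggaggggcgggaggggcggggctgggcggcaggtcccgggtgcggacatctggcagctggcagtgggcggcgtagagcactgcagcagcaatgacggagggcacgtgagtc
PMVK: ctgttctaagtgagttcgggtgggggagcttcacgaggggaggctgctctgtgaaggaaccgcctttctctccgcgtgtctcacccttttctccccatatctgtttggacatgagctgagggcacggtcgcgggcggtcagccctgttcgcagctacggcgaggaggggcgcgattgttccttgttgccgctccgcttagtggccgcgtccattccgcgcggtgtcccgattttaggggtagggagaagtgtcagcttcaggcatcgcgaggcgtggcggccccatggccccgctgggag

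SREBF2 was the only one of the 6 genes whose windows held the sterol regulatory element as spelled; it begins at position -133 from the start, and an inverted CCAAT box follows at -106. Over all 35116 promoter windows, 1.13% held TCACNCCAC and 2.79% held CACCCCAC. An inverted CCAAT box lay at -170 in INSIG1 and at -150 in LSS, one of the HMGCS1 windows held a pair of them at -155 and -100, and 2 of the 3 IDI1 windows held the box. The PMVK window held none of these motifs. CCAAT is common, being present in 34.6% of all windows, and a match or its absence in these windows says nothing about binding in these cells.

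SREBF2 (ENSG00000198911, chr22:41833079-41907308, plus strand) encodes SREBP2. Its level was 261.1, 247.3 and 243.1 CPM in the RBM17 knockdown libraries, 315.9, 291.2 and 295.3 in U2SURP knockdown, 312.7, 287.2 and 279.3 in CHERP knockdown and 332.3, 303.8 and 333.9 in control. All 3 RBM17 knockdown libraries lay under every other library, while the U2SURP and CHERP knockdown libraries overlapped the controls. The log2 fold change was -0.37 ± 0.056 (SE) in RBM17 knockdown, which passed the test (adjusted p = 5.57e-06, edgeR quasi-likelihood). In U2SURP knockdown it was -0.10 ± 0.056 (adjusted p = 0.144), which did not pass, with a 95% interval of -0.23 to 0.03; without U2SURP knockdown library 1 it passed, at -0.16 (adjusted p = 0.0382). In CHERP knockdown it was -0.14 ± 0.056 and passed narrowly (adjusted p = 0.0412). That call was lost in 10 of 18 alternative settings, among them the removal of RBM17 knockdown library 2 (adjusted p = 0.0502), U2SURP knockdown library 2 (0.0510) or 3 (0.0557), CHERP knockdown library 2 (0.141) or 3 (0.0661), and control library 1 (0.133) or 3 (0.114). The antisense gene SREBF2-AS1 overlaps exons of SREBF2 and averaged 8.60, 7.08, 7.52 and 10.1 CPM in RBM17 knockdown, U2SURP knockdown, CHERP knockdown and control; the strand setting of the counting is not given in the sources used here, so reads of the pair may be mixed.

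INSIG1 (ENSG00000186480, chr7:155297776-155310235, plus strand) encodes the sterol-dependent anchor of the SCAP-SREBP complex. Its level was 109.9, 82.0 and 79.3 CPM in RBM17 knockdown, 84.1, 77.8 and 76.2 in U2SURP knockdown, 94.1, 89.6 and 90.5 in CHERP knockdown and 131.1, 140.1 and 156.7 in control. Every knockdown library lay under every control, and RBM17 knockdown library 1 stood above the other knockdown libraries. It fell to 63.4% of control in RBM17 knockdown (log2 fold change -0.66 ± 0.10, adjusted p = 9.82e-05), to 55.7% in U2SURP knockdown (-0.85 ± 0.10, adjusted p = 1.7e-05) and to 64.1% in CHERP knockdown (-0.64 ± 0.10, adjusted p = 0.000154). Among genes with at least 5 CPM, 4.92%, 1.18% and 7.19% had a lower fold change in these 3 comparisons. No other annotated gene overlaps INSIG1.

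Among the enzymes that lead to the isoprenoid diphosphates, HMGCS1 (ENSG00000112972, chr5:43289395-43313512, minus strand) is the cytosolic HMG-CoA synthase, an early enzyme of the pathway. Its level was 59.1, 55.5 and 56.4 CPM in RBM17 knockdown, 52.6, 54.4 and 53.8 in U2SURP knockdown, 48.6, 51.1 and 48.4 in CHERP knockdown and 54.7, 58.8 and 62.4 in control. The CHERP and U2SURP knockdown libraries lay under the controls, those of U2SURP by little, and the RBM17 knockdown libraries overlapped them. Only the CHERP knockdown difference passed the test, at -0.25 ± 0.053 (adjusted p = 0.000432). The log2 fold change was -0.04 ± 0.053 in RBM17 knockdown (adjusted p = 0.547, 95% interval -0.16 to 0.08) and -0.13 ± 0.053 in U2SURP knockdown (adjusted p = 0.0539). The U2SURP knockdown value passed without RBM17 knockdown library 1 (adjusted p = 0.0439), CHERP knockdown library 3 (0.0236) or control library 1 (0.0140). With all libraries kept, it passed when protein-coding genes alone were fitted (0.0193). HMGCS1 varied least of the 8 genes over the 12 libraries, with a highest level 1.29 times the lowest.

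PMVK (ENSG00000163344, chr1:154924734-154936991, minus strand) encodes phosphomevalonate kinase, which adds the second phosphate to mevalonate. Its level was 38.4, 40.8 and 40.0 CPM in RBM17 knockdown, 35.7, 36.5 and 34.1 in U2SURP knockdown, 35.0, 34.7 and 34.9 in CHERP knockdown and 23.2, 21.7 and 26.2 in control. The 9 knockdown libraries lay above the 3 controls with a wide gap, and those of RBM17 knockdown were the highest. The log2 fold change was 0.75 ± 0.060 in RBM17 knockdown (adjusted p = 3e-10), 0.58 ± 0.060 in U2SURP knockdown and 0.56 ± 0.060 in CHERP knockdown (adjusted p = 4.88e-08 in both). Among genes with at least 5 CPM, 5.82%, 2.79% and 4.62% had a higher fold change in these comparisons. PMVK is the only one of the 8 that rose in every knockdown. Its annotated exons cover 1280 bases of a gene that spans 12258. It has a single coding transcript of 5 exons, and no other annotated gene overlaps it.

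IDI1 (ENSG00000067064, chr10:1039152-1049170, minus strand) interconverts the isoprenoid diphosphates that are joined into longer chains. Its level was 62.7, 49.8 and 50.5 CPM in RBM17 knockdown, 44.6, 43.0 and 42.2 in U2SURP knockdown, 48.6, 55.0 and 57.9 in CHERP knockdown and 42.9, 49.95 and 55.7 in control. The controls alone spanned most of this range, and every knockdown overlapped them. The log2 fold change was 0.14 ± 0.098 in RBM17 knockdown (adjusted p = 0.268, 95% interval -0.09 to 0.36), -0.19 ± 0.098 in U2SURP knockdown (adjusted p = 0.131, 95% interval -0.42 to 0.03) and 0.12 ± 0.098 in CHERP knockdown (adjusted p = 0.345, 95% interval -0.11 to 0.35). None of these passed, and the outermost bounds, 0.36 and -0.42, are larger in size than the called rise of FDFT1 in U2SURP knockdown. Single libraries and the settings of the fit both bore on this. The U2SURP knockdown value passed without control library 1 (-0.29, adjusted p = 0.0141) or RBM17 knockdown library 1 (-0.19, adjusted p = 0.0386). It also passed with no filter on low counts (-0.19, adjusted p = 0.00561) and in a fit of U2SURP knockdown and control alone (-0.18, adjusted p = 0.0304). The RBM17 knockdown value passed with RBM17 knockdown library 2 and control library 3 both left out (0.29, adjusted p = 0.0283). That setting kept RBM17 knockdown library 1, the highest at 62.7 CPM.

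FDFT1 (ENSG00000079459, chr8:11795573-11839309, plus strand) encodes squalene synthase, which commits farnesyl diphosphate to sterols. Its level was 113.9, 123.7 and 123.7 CPM in RBM17 knockdown, 92.2, 92.7 and 94.7 in U2SURP knockdown, 84.4, 88.4 and 85.9 in CHERP knockdown and 78.3, 79.4 and 88.9 in control. The RBM17 knockdown libraries stood well above all others, the U2SURP knockdown libraries lay just above the highest control, and the CHERP knockdown libraries overlapped the controls. FDFT1 rose by 0.55 ± 0.054 in RBM17 knockdown (adjusted p = 6.15e-09) and by 0.18 ± 0.054 in U2SURP knockdown (adjusted p = 0.00782) on the log2 scale. The U2SURP knockdown call was lost without control library 1 (0.15, adjusted p = 0.0545). In CHERP knockdown the value was 0.07 ± 0.054 (adjusted p = 0.306, 95% interval -0.05 to 0.19), and it passed without control library 3 (0.13, adjusted p = 0.0408).

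SQLE (ENSG00000104549, chr8:124998497-125022283, plus strand) encodes squalene epoxidase, a second control point of the pathway whose protein is degraded when cholesterol accumulates. Its level was 145.4, 141.3 and 131.1 CPM in RBM17 knockdown, 103.3, 105.3 and 102.0 in U2SURP knockdown, 103.0, 98.2 and 103.5 in CHERP knockdown and 176.5, 183.3 and 203.1 in control. No group overlapped the controls, the U2SURP and CHERP knockdown libraries overlapped each other, and those of RBM17 knockdown lay between. SQLE fell by 0.43 ± 0.055 in RBM17 knockdown (adjusted p = 4.53e-07), by 0.86 ± 0.055 in U2SURP knockdown (adjusted p = 5.08e-11) and by 0.89 ± 0.056 in CHERP knockdown (adjusted p = 8.04e-12) on the log2 scale. In U2SURP knockdown 1.1% of the genes with at least 5 CPM had a lower fold change, in CHERP knockdown 2.83% and in RBM17 knockdown 10.8%. SQLE and INSIG1 had the widest ranges of the 8, with a highest level 2.07 and 2.06 times the lowest.

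LSS (ENSG00000160285, chr21:46188141-46228824, minus strand) encodes lanosterol synthase, which closes the sterol rings after squalene epoxidation. Its level was 69.5, 64.3 and 68.8 CPM in RBM17 knockdown, 91.0, 78.8 and 85.5 in U2SURP knockdown, 75.5, 69.6 and 65.4 in CHERP knockdown and 110.8, 107.2 and 100.6 in control. All knockdown libraries lay under the controls, with the U2SURP knockdown libraries nearest to them. LSS fell to 63.6% of control in RBM17 knockdown (-0.65 ± 0.061, adjusted p = 2.94e-09), to 80.1% in U2SURP knockdown (-0.32 ± 0.061, adjusted p = 0.000135) and to 66.1% in CHERP knockdown (-0.60 ± 0.061, adjusted p = 1.95e-08). LSS and SQLE thus fell in every knockdown but in a different order of size. The antisense genes that overlap exons of HMGCS1, IDI1, FDFT1 and LSS averaged under 0.4 CPM in every group.

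**Figure D2:**
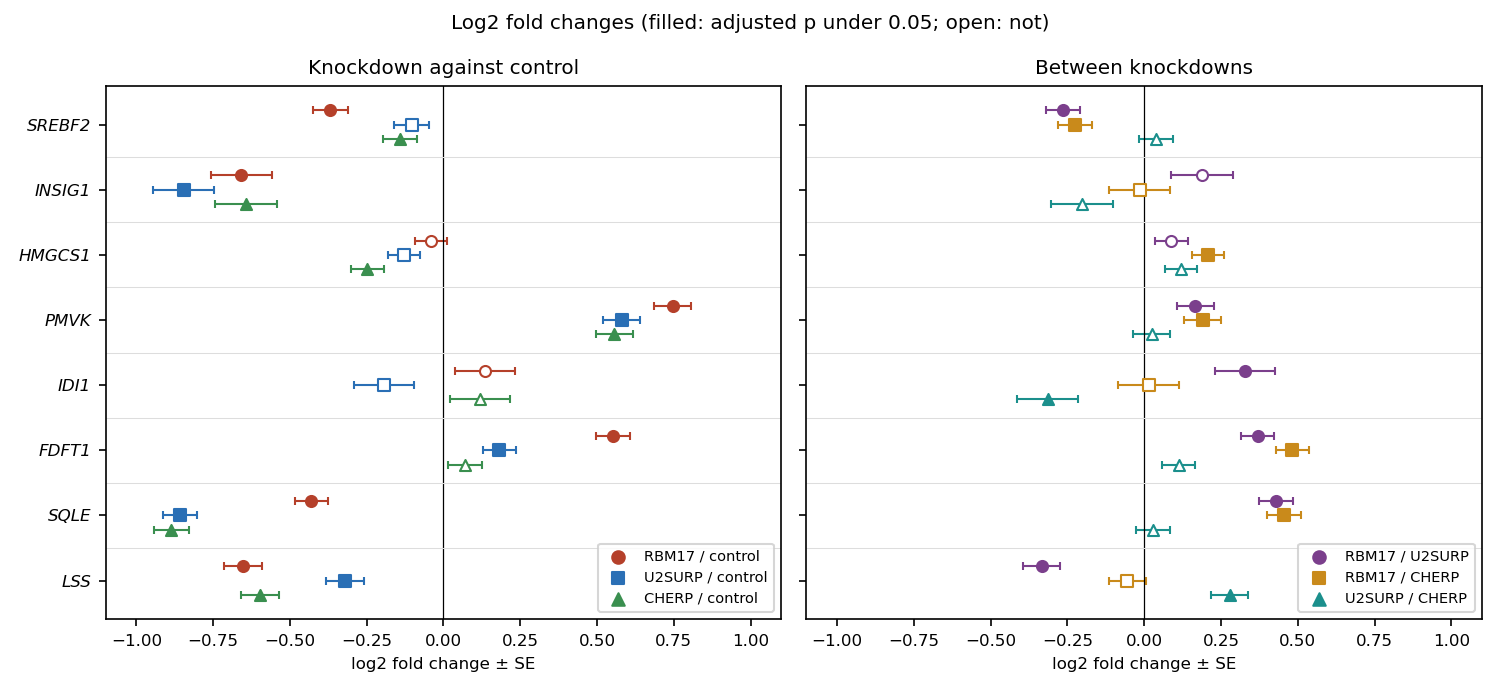
Log2 fold change ± SE (x axis) of the 8 genes (y axis), for each knockdown against control (left) and for the knockdowns against each other (right); filled symbols passed an adjusted p of 0.05. SQLE and INSIG1 lie furthest left in U2SURP knockdown (-0.86 and -0.85), PMVK lies right of 0 in each knockdown, and on the right FDFT1 and SQLE lie above 0 where RBM17 knockdown is on top.

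The knockdowns were also compared with each other in the same fit, 24 comparisons of a gene in all, of which 13 passed with p adjusted over all tested genes. Against U2SURP knockdown 4 genes were higher and 2 lower, where 44.5% of all tested genes were called (23% higher, 21.5% lower). Against CHERP knockdown 4 were higher and 1 lower, where 51.6% were called (26.1% higher, 25.5% lower). FDFT1 was higher in RBM17 knockdown by 0.37 ± 0.054 than in U2SURP knockdown (adjusted p = 4.51e-06) and by 0.48 ± 0.054 than in CHERP knockdown (adjusted p = 5.98e-08). SQLE, which fell in all 3, was also higher there, by 0.43 ± 0.055 (adjusted p = 9.08e-07) and 0.46 ± 0.055 (adjusted p = 2.24e-07). SREBF2 was lower in RBM17 knockdown than in U2SURP knockdown (-0.26 ± 0.056, adjusted p = 0.000452) and than in CHERP knockdown (-0.23 ± 0.056, adjusted p = 0.00159). PMVK was higher by 0.17 ± 0.060 (adjusted p = 0.0259) and 0.19 ± 0.060 (adjusted p = 0.00970), calls that were both lost when protein-coding genes alone were fitted (adjusted p = 0.0860 and 0.0681). The call against U2SURP knockdown was also lost without RBM17 knockdown library 2 (0.0982) or 3 (0.0648) or U2SURP knockdown library 3 (0.117). IDI1, which passed no comparison with control, was higher in RBM17 knockdown than in U2SURP knockdown (0.33 ± 0.098, adjusted p = 0.0132), and its value against CHERP knockdown was 0.01 ± 0.098 (adjusted p = 0.919). HMGCS1 was higher in RBM17 knockdown than in CHERP knockdown (0.21 ± 0.053, adjusted p = 0.00208); against U2SURP knockdown it was at 0.09 ± 0.053 (adjusted p = 0.187) and passed without CHERP knockdown library 3 (0.13, adjusted p = 0.0468). LSS was lower in RBM17 knockdown than in U2SURP knockdown (-0.33 ± 0.061, adjusted p = 7.93e-05). INSIG1 passed neither comparison with RBM17 knockdown on top (0.19 ± 0.10, adjusted p = 0.163, against U2SURP knockdown; -0.02 ± 0.10, adjusted p = 0.919, against CHERP knockdown). Single libraries bore on both, and the filter on 1 of them. The value against U2SURP knockdown passed without RBM17 knockdown library 3 (0.28, adjusted p = 0.0299) and with no filter on low counts (0.19, adjusted p = 0.00715). That against CHERP knockdown passed without RBM17 knockdown library 1 (-0.18, adjusted p = 0.0241), which raised the count of genes called lower there to 2.

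In U2SURP knockdown against CHERP knockdown, 1 of the 8 genes was higher and 1 lower, where 27.9% of all tested genes were called (15% higher, 12.9% lower). A fit of these 2 groups alone gave 3 higher and 2 lower, adding HMGCS1 (adjusted p = 0.0456), FDFT1 (0.0445) and INSIG1 (0.00291). LSS was higher in U2SURP knockdown by 0.28 ± 0.061 (adjusted p = 0.00111). IDI1 was lower in U2SURP knockdown, at -0.32 ± 0.098 (adjusted p = 0.0267), a call lost without any 1 of the 3 U2SURP knockdown libraries (adjusted p = 0.0559, 0.0742 and 0.0796) or without CHERP knockdown library 2 (0.0775) or 3 (0.106), which left 0 genes called lower. For SQLE the difference was 0.03 ± 0.055 (adjusted p = 0.764), with a 95% interval of -0.10 to 0.16, and for PMVK it was 0.02 ± 0.060 (adjusted p = 0.814), with an interval of -0.11 to 0.16. INSIG1 was at -0.20 ± 0.10 (adjusted p = 0.175, interval -0.44 to 0.04). It passed without RBM17 knockdown library 1 (adjusted p = 0.00920) or with no filter on low counts (0.00618), either of which made 2 genes called lower.

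To set genes roughly side by side, levels were divided by the union of all annotated exons of a gene. That length is 5202 bases for FDFT1, with 14 coding transcripts, and 1280 bases for PMVK, with 1. Which transcripts the cells used was not measured, so the order between genes is approximate. On this length control cells held most of SQLE, SREBF2 and INSIG1, at 43.6 ± 3.21, 42.8 ± 2.24 and 39.1 ± 3.56 CPM per kilobase (SD, n = 3). Neighbours among these 3 overlapped between libraries. PMVK (18.5 ± 1.79), FDFT1 (15.8 ± 1.12) and LSS (14.7 ± 0.715) followed, each overlapping the next, and then HMGCS1 (12.5 ± 0.828) and IDI1 (11.4 ± 1.48), which overlapped each other. The gaps below INSIG1 and below LSS were the ones with no overlap. In U2SURP knockdown the order was SREBF2 at 39.8 ± 1.75, PMVK at 27.7 ± 0.952, SQLE at 24.1 ± 0.386, INSIG1 at 21.8 ± 1.14, FDFT1 at 17.9 ± 0.250, LSS at 11.8 ± 0.844, HMGCS1 at 11.4 ± 0.196 and IDI1 at 9.96 ± 0.282 CPM per kilobase, and LSS and HMGCS1 were the only neighbours that overlapped. By this measure PMVK stood above SQLE and INSIG1 in U2SURP knockdown, and under both in control. The same held in CHERP knockdown, where PMVK was at 27.2 ± 0.114, INSIG1 at 25.03 ± 0.652 and SQLE at 23.6 ± 0.681. In RBM17 knockdown SREBF2 (33.2 ± 1.25), SQLE (32.4 ± 1.71) and PMVK (31.1 ± 0.962) overlapped as neighbours, and LSS was lowest at 9.33 ± 0.390.

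Ratios of 2 genes within a library do not depend on scaling between libraries; the pairs were chosen after the values were seen, so they are given with no test. SQLE stood to FDFT1, the enzyme before it, at 1.28, 1.14 and 1.06 in the RBM17 knockdown libraries, 1.12, 1.14 and 1.08 in U2SURP knockdown, 1.22, 1.11 and 1.20 in CHERP knockdown and 2.26, 2.31 and 2.29 in control. The 3 knockdowns lay close together on this ratio, although FDFT1 and SQLE contributed to it in different measure: in RBM17 knockdown both moved, in CHERP knockdown SQLE alone passed the test. PMVK stood to HMGCS1 at 0.698 ± 0.0438 in RBM17 knockdown, 0.661 ± 0.0242 in U2SURP knockdown, 0.706 ± 0.0243 in CHERP knockdown and 0.404 ± 0.0306 in control (SD, n = 3). LSS stood to SQLE at 0.486 ± 0.0357, 0.822 ± 0.0677, 0.691 ± 0.0527 and 0.569 ± 0.0676 in the same order, with U2SURP knockdown highest. INSIG1 stood to SREBF2 at 0.360 ± 0.0532, 0.264 ± 0.00492, 0.312 ± 0.0116 and 0.442 ± 0.0410, where RBM17 knockdown library 1 (0.421) overlapped the lowest control (0.395).

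**Figure D3:**
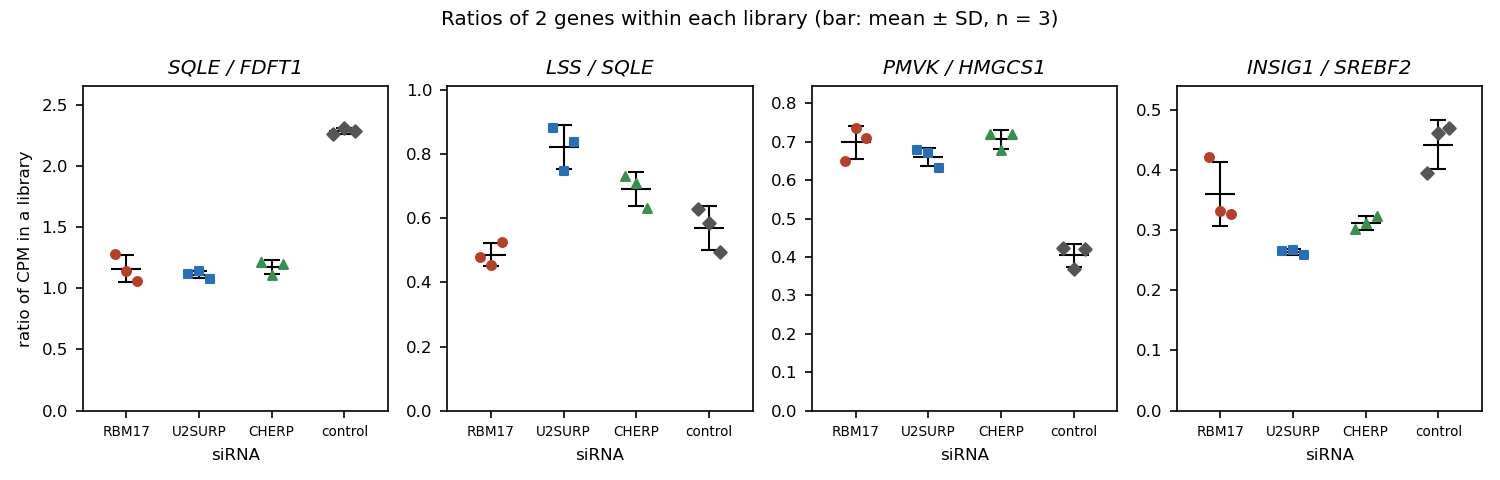
Ratio of the CPM of 2 genes within a library (y axis, from 0) by siRNA group (x axis), 1 panel per pair; points are libraries and bars the mean ± SD of 3. SQLE over FDFT1 is 1.06 to 1.28 in the 9 knockdown libraries and 2.26 to 2.31 in the 3 controls.

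The enzymes among the 8 genes were set in pathway order with the other synthesis enzymes, and calls were counted up to squalene and after it. The early enzymes among the 8 did not move alike: HMGCS1 fell in CHERP knockdown (-0.25), PMVK rose in each knockdown and IDI1 was called in none. This split was made after the values were seen and is a description. Of the 12 enzymes from squalene epoxidation on, 12 fell in U2SURP knockdown and 9 in CHERP knockdown, and none rose in either. The median log2 fold change of these 12 was -0.45 in U2SURP knockdown and -0.54 in CHERP knockdown. Over all tested genes 22.2% were called lower in U2SURP knockdown, 24.6% in CHERP knockdown and 29.3% in RBM17 knockdown. The shares called higher were 21.1%, 22.8% and 25.4%. When protein-coding genes alone were fitted, 4663, 5085 and 5354 of 16286 were called lower. Of the 9 enzymes up to squalene, 4 rose and 1 fell in U2SURP knockdown (median 0.11) and 3 rose and 2 fell in CHERP knockdown (median 0.10). In RBM17 knockdown 4 of these 9 rose and 2 fell (median 0.14), and of the 12 later enzymes 1 rose and 6 fell (median -0.25). The late counts in U2SURP and CHERP knockdown ran from 10 to 12 and stayed at 9 over the 18 alternative settings. In RBM17 knockdown the late enzymes that fell numbered 5 to 9 over these settings. There were 9 without RBM17 knockdown library 1, with no filter on low counts or with protein-coding genes alone, and 8 without control library 1. In U2SURP knockdown 3 of the 9 early enzymes fell without RBM17 knockdown library 1 or control library 1. The count was 2 without CHERP knockdown library 3, with no filter, with protein-coding genes alone or in the fit of the 2 groups alone. In RBM17 knockdown 1 of the early enzymes fell without RBM17 knockdown library 3 or control library 3, under either use of DESeq2 and in the fit of the 2 groups alone. The 1 late enzyme that rose, NSDHL, lost its call without RBM17 knockdown library 2 or 3 or control library 1 or 2, and with protein-coding genes alone.

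**Figure D4:**
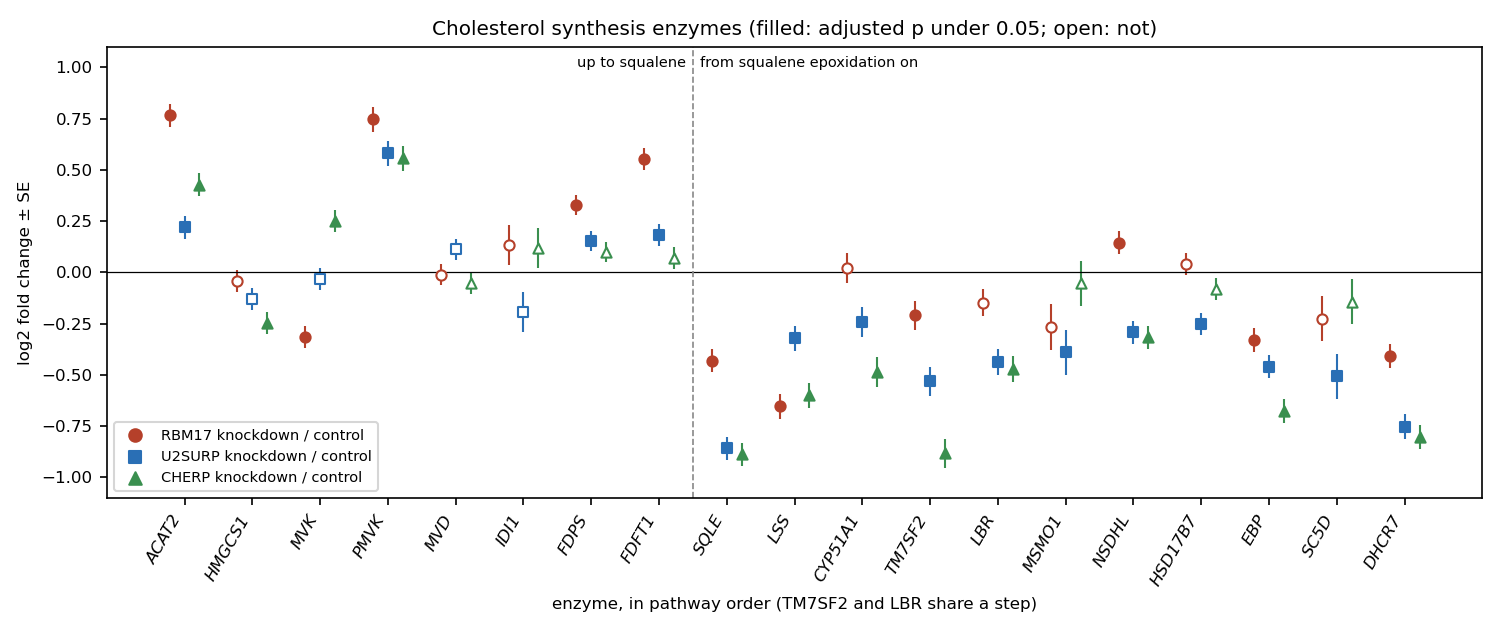
Log2 fold change ± SE (y axis) of 19 of the 21 cholesterol synthesis enzymes counted in the text, in pathway order (x axis) for each knockdown against control; filled symbols passed an adjusted p of 0.05, and the other 2 enzymes are not reported singly. From SQLE on the U2SURP knockdown points drawn lie under 0 (-0.86 to -0.24), while ACAT2 and PMVK lie above 0 in each knockdown.

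Of the 15 other synthesis enzymes, 3 rose and 6 fell in RBM17 knockdown (median -0.16), 2 rose and 11 fell in U2SURP knockdown (median -0.39), and 2 rose and 8 fell in CHERP knockdown (median -0.32). For this list and those that follow, 25.4%, 21.1% and 22.8% of all tested genes were called higher in RBM17, U2SURP and CHERP knockdown. The shares called lower were 29.3%, 22.2% and 24.6%. Genes with a mean of at least 5 CPM had medians of 0.12, 0.05 and 0.02. The lists are short and no set test was run, so their counts are a description. ACAT2, the thiolase of the opening step, rose by 0.77 ± 0.057 in RBM17 knockdown (adjusted p = 8.3e-11), by 0.22 ± 0.057 in U2SURP knockdown (adjusted p = 0.00274) and by 0.43 ± 0.057 in CHERP knockdown (adjusted p = 1.06e-06). DHCR7, which reduces 7-dehydrocholesterol at the end of the pathway, fell in every knockdown, at -0.41 ± 0.059, -0.75 ± 0.059 and -0.80 ± 0.059 in RBM17, U2SURP and CHERP knockdown (adjusted p = 2.53e-06, 8.82e-10 and 1.1e-10). TM7SF2, a sterol reductase, had the largest fall of the list in CHERP knockdown (-0.88 ± 0.071, adjusted p = 4.76e-10). FDPS, which makes farnesyl diphosphate, rose in RBM17 knockdown (0.33 ± 0.050, adjusted p = 4.78e-06) and in U2SURP knockdown (0.15 ± 0.049, adjusted p = 0.0153); the call in U2SURP knockdown was lost without U2SURP knockdown library 3 (0.0863) or control library 2 (0.0523), which left 1 enzyme higher.

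Of 9 genes that process and steer SREBPs, 8 fell and none rose in U2SURP knockdown (median -0.32) and in CHERP knockdown (median -0.40), while 1 rose and 5 fell in RBM17 knockdown (median -0.18). SCAP, the escort of SREBP2, was at -0.76 ± 0.062 in CHERP knockdown (adjusted p = 4.92e-10), -0.32 ± 0.061 in U2SURP knockdown (adjusted p = 0.000137) and -0.13 ± 0.061 in RBM17 knockdown (adjusted p = 0.0878). MBTPS1, the site-1 protease that makes the opening cut, fell in all 3, by 0.37 ± 0.058, 0.27 ± 0.058 and 0.45 ± 0.058 in RBM17, U2SURP and CHERP knockdown (adjusted p = 7.93e-06, 0.000545 and 8.73e-07). SREBF1, which encodes the SREBP1 proteins, fell in U2SURP knockdown (-0.41 ± 0.053, adjusted p = 1.06e-06) and CHERP knockdown (-0.24 ± 0.053, adjusted p = 0.000567). In RBM17 knockdown SREBF1 was at 0.11 ± 0.053 (adjusted p = 0.0705) and was called higher in 6 of 18 alternatives, among them the removal of U2SURP knockdown library 1, CHERP knockdown library 3 or control library 1. HSP90B1 had the largest falls of the list, -0.94 ± 0.066, -0.68 ± 0.066 and -1.34 ± 0.067 (adjusted p = 3.96e-11, 2.02e-08 and 1.68e-13), and it is a general chaperone of the endoplasmic reticulum rather than a part of the SREBP machinery alone. The gene that rose in RBM17 knockdown was MBTPS2, the site-2 protease (0.16 ± 0.057, adjusted p = 0.0168). MBTPS2 lost its call without RBM17 knockdown library 1 or 2 or control library 1 or 2, and with protein-coding genes alone. The count was 0 without RBM17 knockdown library 1 or 2 or control library 2, and 2 without U2SURP knockdown library 1 or CHERP knockdown library 3. Without control library 1 it stayed at 1, with SREBF1 (0.17, adjusted p = 0.0157) in place of MBTPS2 (0.13, adjusted p = 0.0907).

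Of 6 genes for the degradation of sterol synthesis enzymes, 2 rose and 3 fell in RBM17 knockdown (median -0.13), 1 rose and 2 fell in U2SURP knockdown (median -0.13), and none rose and 5 fell in CHERP knockdown (median -0.24). MARCHF6, a ubiquitin ligase for squalene epoxidase, fell by 0.54 ± 0.054, 0.37 ± 0.054 and 0.36 ± 0.054 in RBM17, U2SURP and CHERP knockdown (adjusted p = 9.34e-09, 5.47e-06 and 5.68e-06), so that the transcript of the ligase and that of its target SQLE were both lower in every knockdown. UBE2G2, a ubiquitin-conjugating enzyme, rose in RBM17 knockdown (0.13 ± 0.049, adjusted p = 0.0268) and in U2SURP knockdown (0.22 ± 0.049, adjusted p = 0.000718) and fell in CHERP knockdown (-0.19 ± 0.049, adjusted p = 0.00328). The call in RBM17 knockdown was lost without RBM17 knockdown library 2 or 3 or control library 1 or 2, each of which left 1 gene higher. With no filter on low counts or with protein-coding genes alone it was lost too.

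Of 8 genes of cholesterol uptake and transport 7 had enough counts to be tested. The list counts were 1 higher and 3 lower in RBM17 knockdown (median -0.13), 0 and 5 in U2SURP knockdown (median -0.35), and 0 and 4 in CHERP knockdown (median -0.28); without control library 3, 2 were higher in RBM17 knockdown. SCARB1, the HDL receptor, was the one that rose in RBM17 knockdown (0.31 ± 0.057, adjusted p = 5.9e-05), and it fell in U2SURP knockdown (-0.65 ± 0.057, adjusted p = 5.1e-09) and CHERP knockdown (-0.55 ± 0.057, adjusted p = 3.32e-08). NPC1, which exports cholesterol from lysosomes, had the largest fall in CHERP knockdown (-0.66 ± 0.057, adjusted p = 1.23e-09), and in RBM17 knockdown it was NPC2, its soluble partner (-0.35 ± 0.067, adjusted p = 0.000109).

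Of 5 genes of the oxysterol receptor LXR, efflux and esterification, 1 rose and 2 fell in RBM17 knockdown (median -0.10), 0 rose and 2 fell in U2SURP knockdown (median -0.09), and 2 rose and 2 fell in CHERP knockdown (median -0.09). NR1H3, which encodes LXR alpha, rose by 1.09 ± 0.075 in CHERP knockdown (adjusted p = 3.57e-11) and by 0.40 ± 0.074 in RBM17 knockdown (adjusted p = 6.51e-05). SOAT1, which esterifies cholesterol for storage, fell in all 3, most in CHERP knockdown (-0.55 ± 0.062, adjusted p = 8.13e-08) and U2SURP knockdown (-0.43 ± 0.061, adjusted p = 4.06e-06). ABCA1, an exporter of cholesterol, had the largest fall in RBM17 knockdown (-0.31 ± 0.065, adjusted p = 0.000227). The counts of 2 became 1 in several removals: the falls in U2SURP knockdown without U2SURP knockdown library 2 or 3 or control library 1, the rises in CHERP knockdown without U2SURP knockdown library 1, CHERP knockdown library 3 or control library 2 or 3, and the falls in CHERP knockdown without CHERP knockdown library 2 or 3 or any 1 control library.

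Of 8 fatty acid synthesis genes of the SREBP1 branch, 5 rose and 2 fell in RBM17 knockdown (median 0.22), 1 rose and 5 fell in U2SURP knockdown (median -0.15), and 0 rose and 4 fell in CHERP knockdown (median -0.15). ACLY, which makes cytosolic acetyl-CoA, rose by 0.82 ± 0.053 in RBM17 knockdown (adjusted p = 1.28e-11) and by 0.18 ± 0.053 in U2SURP knockdown (adjusted p = 0.00766). FADS2, a fatty acid desaturase, had the largest fall in RBM17 knockdown (-0.70 ± 0.062, adjusted p = 1.11e-09) and in U2SURP knockdown (-0.69 ± 0.061, adjusted p = 5.53e-09), and in CHERP knockdown it was ACACA, acetyl-CoA carboxylase (-0.64 ± 0.054, adjusted p = 1.08e-09). Of these counts, the 2 that fell in RBM17 knockdown became 1 without RBM17 knockdown library 1, U2SURP knockdown library 1, CHERP knockdown library 3 or control library 1 or 2. The 5 that fell in U2SURP knockdown became 3 without U2SURP knockdown library 2 or control library 1, and 1 gene rose in CHERP knockdown without RBM17 knockdown library 1 or control library 3. Of 8 genes of the isoprenoid side branches, which draw on the intermediates before squalene, 6 rose and 0 fell in RBM17 knockdown (median 0.48), 5 rose and 0 fell in U2SURP knockdown (median 0.22), and 2 rose and 2 fell in CHERP knockdown (median 0.10; 1 fell without control library 3). PDSS2, a subunit of the enzyme that builds the coenzyme Q side chain, rose in all 3, by 0.75 ± 0.062, 0.33 ± 0.062 and 0.48 ± 0.062 in RBM17, U2SURP and CHERP knockdown (adjusted p = 4.06e-10, 0.000131 and 7.01e-07). COQ2, which joins that chain to the ring, had the largest fall in CHERP knockdown (-0.54 ± 0.064, adjusted p = 2.26e-07).

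**Figure D5:**
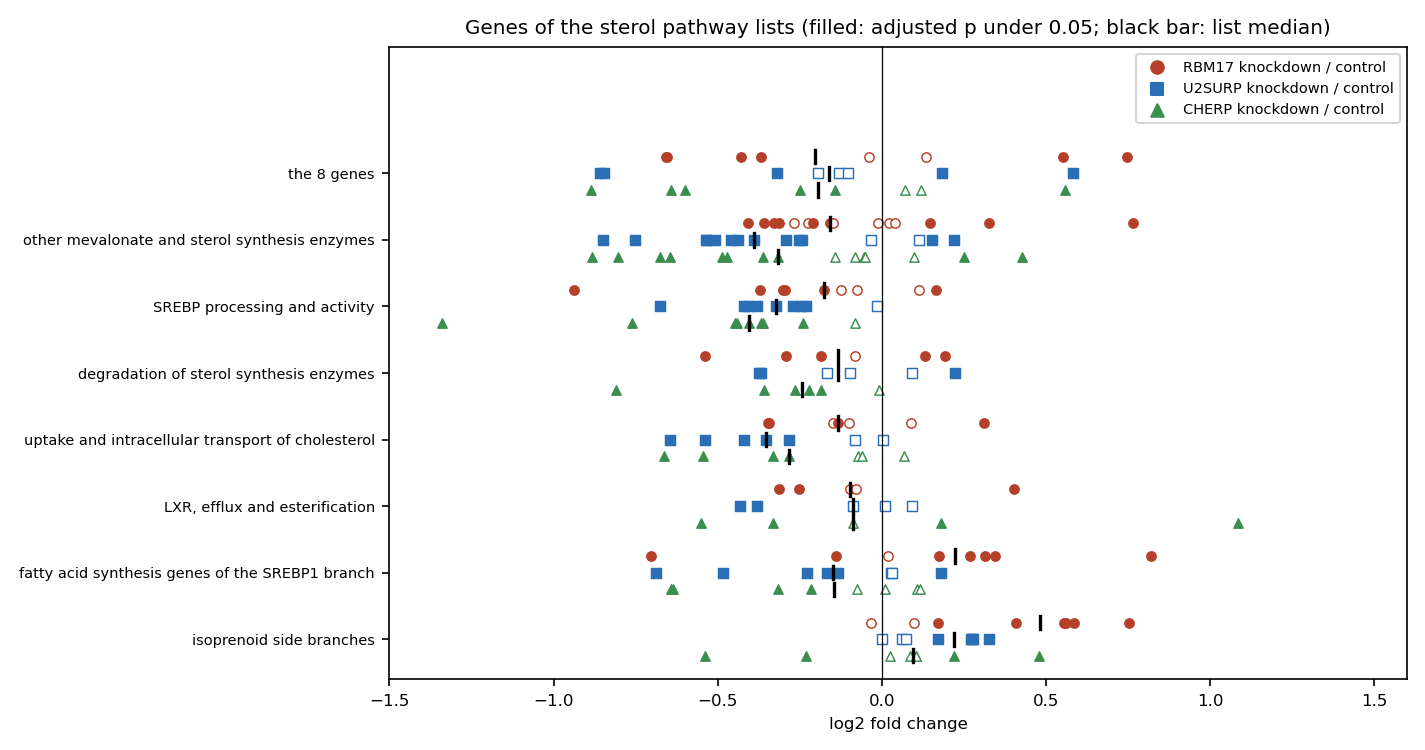
Log2 fold change (x axis) of each gene of the 8 listed genes and of 7 pathway lists (y axis), for each knockdown against control; filled symbols passed an adjusted p of 0.05 and black bars are list medians. The isoprenoid genes lie mostly right of 0 in RBM17 knockdown (median 0.48), and the SREBP processing genes lie left of 0 in U2SURP and CHERP knockdown (medians -0.32 and -0.40).

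For each of the 8 genes, the 2 protein-coding genes with the nearest set of 3 fold changes were sought among 10929 with a mean of at least 5 CPM, by the root mean square difference on the log2 scale. Those reported here were PATJ (0.0102) and ABCC8 (0.0197) for SREBF2, SRSF5 (0.0452) for INSIG1, PEX16 (0.0177) and TMEM42 (0.0202) for HMGCS1, and KRT8 (0.0130) and COPZ1 (0.0218) for PMVK. For IDI1 they were GEMIN6 (0.0218) and FAM92A (0.0334), for FDFT1 MED29 (0.00983) and QTRT2 (0.0101), for SQLE MYORG (0.0395) and MT-ND1 (0.0405), and for LSS CSRNP3 (0.0353) and DOCK3 (0.0423). None of the genes named here belongs to the pathway lists. Reads of MT-ND1, a mitochondrial gene with nuclear copies, may be shared with them.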

How the data were processed

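RNA of 12 libraries, 3 per siRNA group, was prepared per the labels' protocols with the TruSeq stranded mRNA kit. For each library the authors deposited a table of raw read counts by Ensembl gene ID. HISAT2 2.0.5, SAMtools, HTSeq and the build GRCh38 are named, without roles, per the submitters' processing notes; neither the annotation release nor the counting's strand setting is given in the sources used here. Groups came from the labels. Libraries are numbered in accession order, which pairs nothing. Every pair of libraries in a group differed by more than sampling noise (11.7 to 51.7 chi-square units per gene), and none was merged. GENCODE 29 named 56996 of 60554 IDs.

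Counts were filtered with filterByExpr, TMM-scaled and fitted by robust quasi-likelihood in edgeR 4.0.16 (limma 3.58.1, R 4.3.3), all 4 groups in 1 fit that shares the estimate of spread (common biological coefficient of variation 0.0866). P-values were adjusted by Benjamini-Hochberg over 29003 genes. Intervals of 95% use 8 residual degrees of freedom. The median SE over all tested genes in RBM17 knockdown was 0.136. The procedure was checked on simulated counts. Levels per kilobase use the union of exons.

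The 8 genes, the pathway and marker lists and the rule for named genes were chosen with earlier results of these data known. The rule named the 8 genes in full, the siRNA targets, list genes including the called gene with the largest change per list and knockdown, and the 2 nearest genes for each of the 8; a pathway list gene with a smaller change was named for its role. Some genes that the rule names are not reported here, and they stay in the counts and medians. Alternatives were DESeq2 1.42.0 (size factors, or its Wald test), no filter, protein-coding genes alone, the 2 groups compared alone, and leaving out each library. Figures were drawn with matplotlib 3.10.9.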

Additional observations from a re-analysis of the deposited data

How the results depend on the processing

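No called value changed sign under any of the 18 alternatives run. Of 432 values of the 8 genes against control, 409 stayed as in the main fit, whether called or not called, 11 lost a call and 12 gained one. Between knockdowns the counts were 413, 10 and 9 of 432. INSIG1, PMVK, SQLE and LSS kept their calls in all 3 knockdowns against control under all 18, as did SREBF2 and FDFT1 in RBM17 knockdown and HMGCS1 in CHERP knockdown. Removal of 1 library at a time gave 2 to 2 genes higher and 4 to 4 lower in RBM17 knockdown, 1 to 2 and 3 to 5 in U2SURP knockdown, and 1 to 2 and 4 to 5 in CHERP knockdown. Between knockdowns it gave 3 to 5 higher and 2 to 2 lower for RBM17 against U2SURP, 4 to 4 and 1 to 2 for RBM17 against CHERP, and 1 to 1 and 0 to 2 for U2SURP against CHERP. For U2SURP against CHERP, the fit of these 2 groups alone gave 3 higher and 2 lower, and no filter on low counts gave 2 lower. An alternative chosen after seeing the data left out RBM17 knockdown library 2 and control library 3, the lowest of their groups on the leading principal component. It gave 2 genes higher in CHERP knockdown and a call for IDI1 in RBM17 knockdown. It kept RBM17 knockdown library 1, which lay at the other end of its group (-64.5). That library differed from libraries 2 and 3 by 38.5 and 51.7 chi-square units per gene, and those 2 from each other by 12.6. The cause of these moves was not tested. DESeq2 size factors moved the median log2 fold change of all genes by 0.055, 0.029 and 0.024 in RBM17, U2SURP and CHERP knockdown, and the fit of protein-coding genes alone by 0.089, 0.025 and 0.012, all under 0.1. With DESeq2 size factors, 51.7%, 52.9% and 51.4% of all calls in RBM17, U2SURP and CHERP knockdown were higher, against 46.5%, 48.8% and 48.1% with TMM. Of 3132 values of the pathway lists, 2955 stayed as in the main fit, whether called or not called, 127 lost a call and 50 gained one. No paired analysis was possible because the labels give no replicate number shared between groups. Depth limits no statement about the 8 genes; transcripts, not protein or sterol, were measured.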
